A study of Mus musculus with 4 samples.

Results

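Rnf32 and Lmbr1 lie side by side on mouse chromosome 5, next to Shh, and nuclear RNA over both genes was read probe by probe on a tiling array. The stretch chr5:29515001-29715000 (mm9) holds both genes. It was covered by 1657 of the 48316 probes of the array, each 60 bases long. Rnf32 was taken as chr5:29522000-29551000, with 336 probes, and Lmbr1 as chr5:29557000-29705000, with 1100 probes. These ends are approximate. RefSeq gives Rnf32 a length of 34.9 kb, longer than the 29.0 kb taken here, and Lmbr1 one of 149 kb, so the stretch called the gap below may belong in part or whole to Rnf32. The remaining probes of the stretch lie before Rnf32 (81 probes), between the genes (65) and beyond Lmbr1 (75). Probes were chosen by position, and no measured value entered the choice.

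The study compared mouse 46c embryonic stem cells (ESC) with neural progenitor cells (NPC) made from the same line by the N2B27 protocol, with 2 arrays per group. 46c is an ESC line that carries a fluorescent reporter at the neural gene Sox1. The labels give no other genotype, agent or time, and both groups rest on this 1 line. RNA came from chromatin of nuclei prepared without RNase and was labelled by random priming, so the signal has no strand. RNA from introns is read as well as RNA from exons.

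Lmbr1 encodes a membrane protein with several membrane-spanning segments. It is best known because one of its introns harbours the enhancer that drives Shh in the posterior limb bud. Damage to that enhancer alters digit number. Rnf32 encodes a RING finger protein, a class that often acts in ubiquitin transfer. In the gene table the protein-coding order is Shh, Rnf32, Lmbr1, Nom1. The RefSeq promoters lie on the plus strand for Rnf32 and on the minus strand for Lmbr1, so the genes are transcribed towards each other. Positions in Lmbr1 are therefore counted from its high-coordinate end. The annotation of the array's build is not used here, so no probe was placed in an exon, an intron or the limb enhancer.

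Both genes matched RefSeq by symbol (gene IDs 56874 for Rnf32 and 56873 for Lmbr1). Both promoters are printed because the results below describe the level at the gene starts. Mean signal was lower in NPC over both genes, though the Rnf32 change did not pass the main test (limma adjusted p = 0.0797). Each sequence is the 250 bases before the start of transcription (RefSeq, GRCm38.p6, a build other than that of the array), at chr5:29195743-29195992 on the plus strand for Rnf32 and chr5:29378391-29378640 on the minus strand for Lmbr1. Capitals mark the GC box GGGCGG on either strand.
Rnf32: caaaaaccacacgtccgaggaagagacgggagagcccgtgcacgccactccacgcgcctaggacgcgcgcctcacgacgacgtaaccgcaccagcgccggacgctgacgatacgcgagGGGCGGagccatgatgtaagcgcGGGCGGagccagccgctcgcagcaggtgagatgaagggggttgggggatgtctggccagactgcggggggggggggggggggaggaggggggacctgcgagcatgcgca
Lmbr1: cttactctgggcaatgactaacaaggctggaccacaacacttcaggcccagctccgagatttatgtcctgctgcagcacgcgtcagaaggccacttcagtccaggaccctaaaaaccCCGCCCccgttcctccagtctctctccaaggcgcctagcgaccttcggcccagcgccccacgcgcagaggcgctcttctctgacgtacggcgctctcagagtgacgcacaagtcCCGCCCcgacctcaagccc

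Both promoters are rich in CpG. The Rnf32 window holds 29 CpG and the Lmbr1 window 18, against a median of 6 over 32851 RefSeq promoter windows of this length, and their GC contents are 70% and 62% against a median of 52.4%. Each holds 2 GC boxes, a motif found on either strand in 32.7% of the windows. Neither holds the TATA box TATAAA, which 12.4% hold. The letters TGACGT occur once in the Lmbr1 window and in 6.47% of all windows, and GCATGCGC occurs once in the Rnf32 window and in 2.26% of all windows. The E-box CANNTG has 1 match in the Rnf32 window and none in the Lmbr1 window, and 66.2% of the windows hold it. These are matches of letters and not shown to be sites.

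Values below are log2 intensity relative to each array's 75th percentile, taken over those probes that were well above background on every array, so most are negative. Over the whole array the share of probes well above background was 42.5% in ESC 1, 44.6% in ESC 2, 54.1% in NPC 1 and 54.3% in NPC 2. No probe of the stretch was saturated. The labels do not say whether a group's arrays stem from separate cultures. The p-values therefore rest on the spread between these arrays alone, and that spread may be technical. With 2 arrays against 2, no exact test can go below p = 0.333. In bulk nuclear RNA, fewer expressing cells and less RNA per cell cannot be told apart.

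Lmbr1 RNA was lower in NPC along most of the gene. The mean level over its 1100 probes was -2.16 in ESC 1, -2.11 in ESC 2, -3.08 in NPC 1 and -3.55 in NPC 2. Both ESC arrays lay above both NPC arrays, and the means of the ESC pair nearly coincided while those of the NPC pair differed by 0.47. In single windows the ESC arrays differed more, in both directions. They were at -1.33 and -2.33 in the window from 29675001 and at -2.23 and -1.31 in that from 29555001. The mean of the ESC pair was -2.13 ± 0.038 and that of the NPC pair -3.32 ± 0.33 (SD, n = 2 per group), a change of -1.18 (SE 0.20) and a level 2.27-fold higher in ESC. This change passed the test across all windows of the array (limma, Benjamini-Hochberg adjusted p = 0.0132). It remained negative in every alternative run, but without ESC 1 or without ESC 2 it was not called (-1.21 and -1.15, limma adjusted p = 0.129 and 0.143).

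How large this fall is depends on what is held constant between arrays. The median change of all 964 windows of 5 kb was -0.34, and relative to that median Lmbr1 changed by -0.85. Scalings of a whole array moved that median to between -0.73 and 0.16 and shifted both genes with it. Normexp background correction with quantile normalization put Lmbr1 at -0.53, or -0.40 relative to the median. Within each array, Lmbr1 stood above the other 10733 probes of the Shh tile by 1.60 and 1.62 in ESC 1 and ESC 2, and by 1.09 and 0.76 in NPC 1 and NPC 2. The groups did not overlap, and this difference, which no shift of a whole array can alter, fell by 0.68 (SE 0.17, exact permutation p = 0.333).

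The share of Lmbr1 probes well above background was 72.6% and 73.3% in ESC 1 and ESC 2, against 60.1% and 54.5% in NPC 1 and NPC 2 (exact permutation p = 0.333). Over the whole array this share was higher in NPC than in ESC, and over the rest of the Shh tile ESC had 41.2% ± 2.26 and NPC 38.5% ± 1.83 (SD, n = 2 per group). Values at the array's lowest level, where a spot has only a bound, made up 14.0% and 9.60% of the probes of the stretch in the ESC arrays and 17.9% and 21.8% in the NPC arrays.

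**Figure D1:**
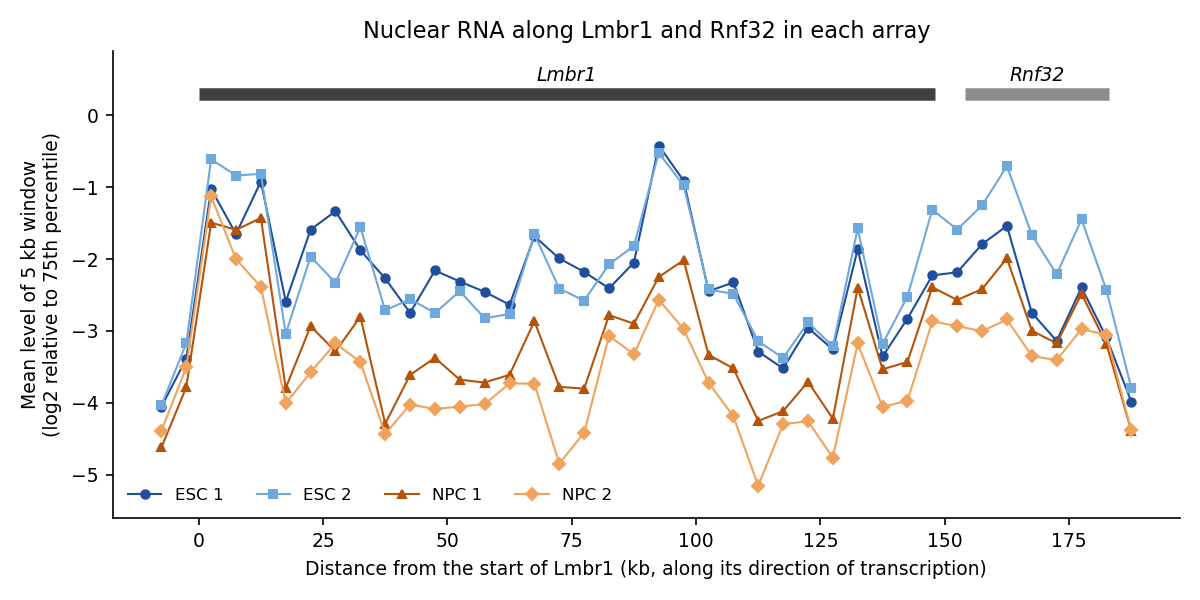
Mean log2 level of each 5 kb window (y axis) against distance from the start of Lmbr1 in kb (x axis), with 1 line per array and bars for the 2 genes. The ESC lines lie above the NPC lines in 29 of 30 windows over Lmbr1 and in 5 of 6 over Rnf32. Near the start of Rnf32 ESC 1 runs close to NPC 1, and it lies above NPC 1 in every Rnf32 window.

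All 30 windows of Lmbr1 had a negative change, from -2.11 to -0.49, with a median of -1.20. Of these, 25 were called lower and 0 higher (limma, Benjamini-Hochberg), against 29.5% of all windows called lower and 22.0% called higher. An unadjusted limma p under 0.05 was reached by 26 lower and 0 higher, against 381 lower and 232 higher of all 964 windows. In 29 of the 30 Lmbr1 windows both ESC arrays lay above both NPC arrays, which held for 57.8% of all windows. Most of the rest of the Shh tile shared this direction. There 218 of 221 windows had a negative change, and in 200 both ESC arrays lay above both NPC arrays. With chromosome 12 kept out of the percentile, 16 Lmbr1 windows were called, against 6.64% of all windows lower. It was also 16 when arrays were centred on the rest of the Shh tile, with 6.33%. Without ESC 1, and also without ESC 2, no window of the array was called lower (limma).

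As means over segments, the fall was deepest in the middle of Lmbr1. The gene was divided into 3 segments of equal length. In the start segment it was at -1.75 and -1.71 in the ESC arrays and at -2.61 and -2.99 in the NPC arrays, a change of -1.07. In the middle segment it was at -1.91 and -1.99 in ESC and at -3.15 and -3.58 in NPC, a change of -1.41. The far segment stood at -2.66 and -2.48 in ESC and at -3.36 and -3.92 in NPC, a change of -1.07. The start segment exceeded the middle segment by 0.16 and 0.28 in ESC and by 0.54 and 0.59 in NPC, with no overlap. That excess was 0.34 larger in NPC (SE 0.067, exact permutation p = 0.333), and it was larger in NPC in every alternative run. The start segment includes the windows within 15 kb of the start, which changed by -1.04, -0.55 and -0.49. Its other windows changed by -1.87 to -1.08, and those of the middle segment by -2.11 to -0.68. The segments were not compared without that 15 kb.

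No single straight trend along Lmbr1 separated the groups. The level fell away from the start by 0.85 and 0.57 per 100 kb in ESC 1 and ESC 2, and by 0.54 and 0.76 in NPC 1 and NPC 2. These slopes overlap between groups (difference 0.055, SE 0.18, exact permutation p = 0.667). They rest on the windows at the start: without the 3 windows within 15 kb of it, the slopes were -0.62 and 0.0029 in ESC and 0.16 and -0.035 in NPC. This zone was chosen after the profile had been seen. Probes differ in how well they bind, so levels at different positions are compared only as they differ between arrays. The probes are the same except for outlier spots, which were left out array by array.

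The first 5 kb of Lmbr1, chr5:29700001-29705000, held the highest mean level of the gene over all arrays. It stood at -1.02 and -0.61 in ESC and at -1.49 and -1.13 in NPC, a change of -0.49 (SE 0.22, limma adjusted p = 0.116). The ESC values lay above the NPC values, and the difference was near the median of the rest of the tile, -0.51. With arrays centred on the rest of the tile it was 0.0066. In both groups 80% of its 50 probes were well above background. Together with the next 10 kb, this start zone exceeded the rest of Lmbr1 by 1.09 and 1.58 in ESC 1 and ESC 2 and by 1.84 and 2.01 in NPC 1 and NPC 2, an excess that was 0.59 larger in NPC (SE 0.26, exact permutation p = 0.333).

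In ESC the highest window of Lmbr1 was not at the start. It was chr5:29610001-29615000, deep inside the gene, at -0.42 and -0.52 in ESC and at -2.25 and -2.56 in NPC. The 4 arrays separated cleanly there, with a change of -1.94 (SE 0.17, limma adjusted p = 0.00591, 42 probes). Its probes from 29610969 and 29611029, bright in ESC and at 1.95 and 1.57 in NPC 2, were outliers on NPC 1. They are missing from the NPC 1 mean alone. This window exceeded the first 5 kb of the gene by 0.61 and 0.088 in ESC and lay below it by values of -0.76 and -1.44 in NPC. The order of these windows was thus reversed between groups, in a comparison chosen after the values had been seen (difference -1.44, SE 0.43, exact permutation p = 0.333). In NPC its level still lay above most of the gene, and 66.7% of its probes were well above background, against 85.7% in ESC.

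The other windows with the deepest falls also lay inside Lmbr1. They began at 29630001, with -2.11 (SE 0.40, 7 probes), at 29665001, with -1.87 (SE 0.20, 15 probes), at 29625001, with -1.73 (SE 0.27, 24 probes), and at 29635001, with -1.63 (SE 0.31, 48 probes). The limma adjusted p of these 4 ran from 0.00591 to 0.0179. The window at 29630001 has few probes, and the share well above background went from 71.4% in ESC to 35.7% in NPC. The lowest window of Lmbr1, chr5:29590001-29595000, was at -3.29 and -3.14 in ESC and at -4.25 and -5.15 in NPC.

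**Figure D2:**
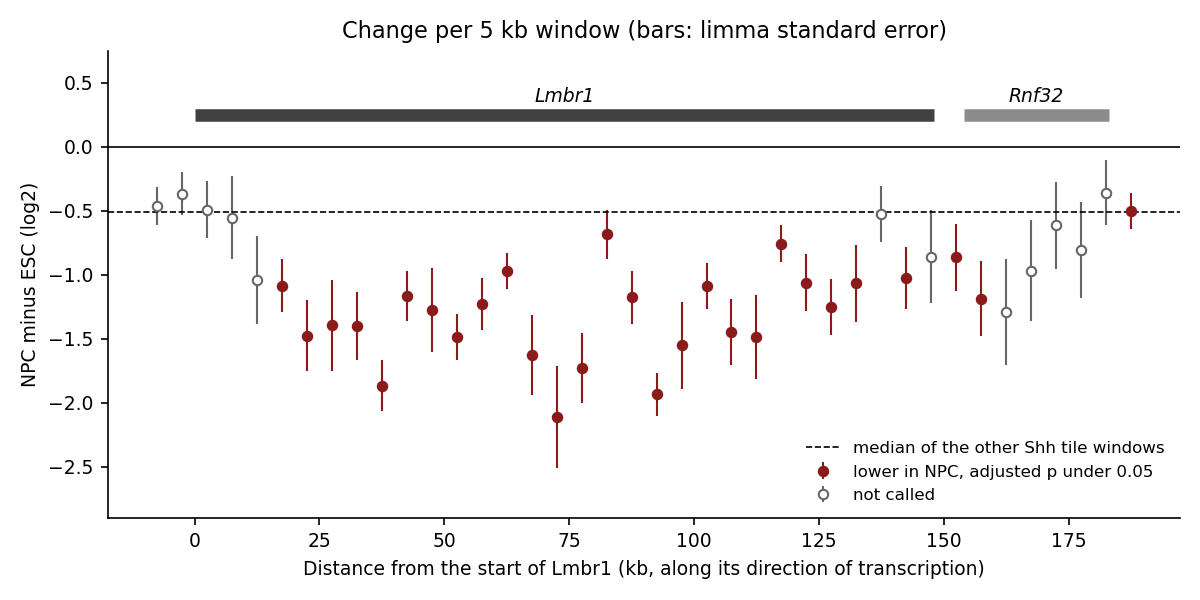
NPC minus ESC in log2 (y axis) for each 5 kb window against distance from the start of Lmbr1 in kb (x axis), with limma standard errors. Filled points were called lower, 25 of 30 over Lmbr1 and 1 of 6 over Rnf32, and the dashed line is the median of the other windows of the Shh tile, -0.51.

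Rnf32 also had lower values in NPC, but the ESC arrays disagreed over it. Its mean level over 336 probes was -2.32 in ESC 1 and -1.45 in ESC 2, against -2.58 in NPC 1 and -3.01 in NPC 2. ESC 2 stood apart from the other arrays, and ESC 1 lay closer to NPC 1 than to ESC 2. The group means were -1.89 ± 0.61 and -2.79 ± 0.31 (SD, n = 2 each), and the change of -0.90 (SE 0.34) did not pass (limma adjusted p = 0.0797). Without ESC 2 it was -0.47 and without ESC 1 it was -1.34, so the size of the change depends on which ESC array is kept. It was called with the percentile over all probes (-1.29), with normexp (-0.47), with the authors' values (-0.93) and without NPC 1 (-1.12).

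Of the 6 windows of Rnf32, 1 was called lower and 0 higher, against 29.5% and 22.0% of all windows (limma, Benjamini-Hochberg). An unadjusted limma p under 0.05 was reached by 2 lower and 0 higher windows, against 381 and 232 of all 964. In 5 of the 6 both ESC arrays lay above both NPC arrays. This held for 57.8% of all windows and for 200 of 221 in the rest of the Shh tile. The called window was chr5:29545001-29550000, at the far end of the span used, with -1.19 (SE 0.29, adjusted p = 0.0315). The highest window, chr5:29540001-29545000, was at -1.54 and -0.71 in ESC and at -1.99 and -2.84 in NPC, and its change of -1.29 (SE 0.41) just missed the threshold (limma adjusted p = 0.0538). The lowest, chr5:29530001-29535000, was at -3.14 and -2.21 in ESC and at -3.17 and -3.41 in NPC, where ESC 1 and NPC 1 hardly differed.

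Rnf32 was divided in 2 at its midpoint. The start portion went from -2.61 and -1.70 in ESC to -2.71 and -2.99 in NPC, and the far portion from -2.01 and -1.18 to -2.42 and -3.03. Within each array the far portion exceeded the start portion by 0.60 and 0.53 in ESC and by 0.29 and -0.039 in NPC. The groups did not overlap in this measure, even though the ESC arrays disagreed on the level of the gene (difference -0.44, SE 0.17, exact permutation p = 0.333). The share of Rnf32 probes well above background was 71.4% in ESC 1, 86.0% in ESC 2, 73.5% in NPC 1 and 68.2% in NPC 2, and here the groups overlap.

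Whether Lmbr1 fell more than Rnf32 could not be decided. Lmbr1 minus Rnf32 was 0.16 in ESC 1, -0.65 in ESC 2, -0.50 in NPC 1 and -0.54 in NPC 2. The NPC values lie between those of the ESC arrays. The difference of the changes was -0.28 (SE 0.41, exact permutation p = 1), and it turned to 0.13 without ESC 1 and was -0.68 without ESC 2. The disagreement of the ESC arrays varied with position. As a mean over each segment, ESC 2 minus ESC 1 was 0.87 over Rnf32, 0.56 over the gap and 0.053 over Lmbr1, against 0.037 over the rest of the Shh tile. NPC 2 minus NPC 1 was -0.43, -0.41 and -0.47 over the same segments, and -0.14 over the rest of the tile.

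**Figure D3:**
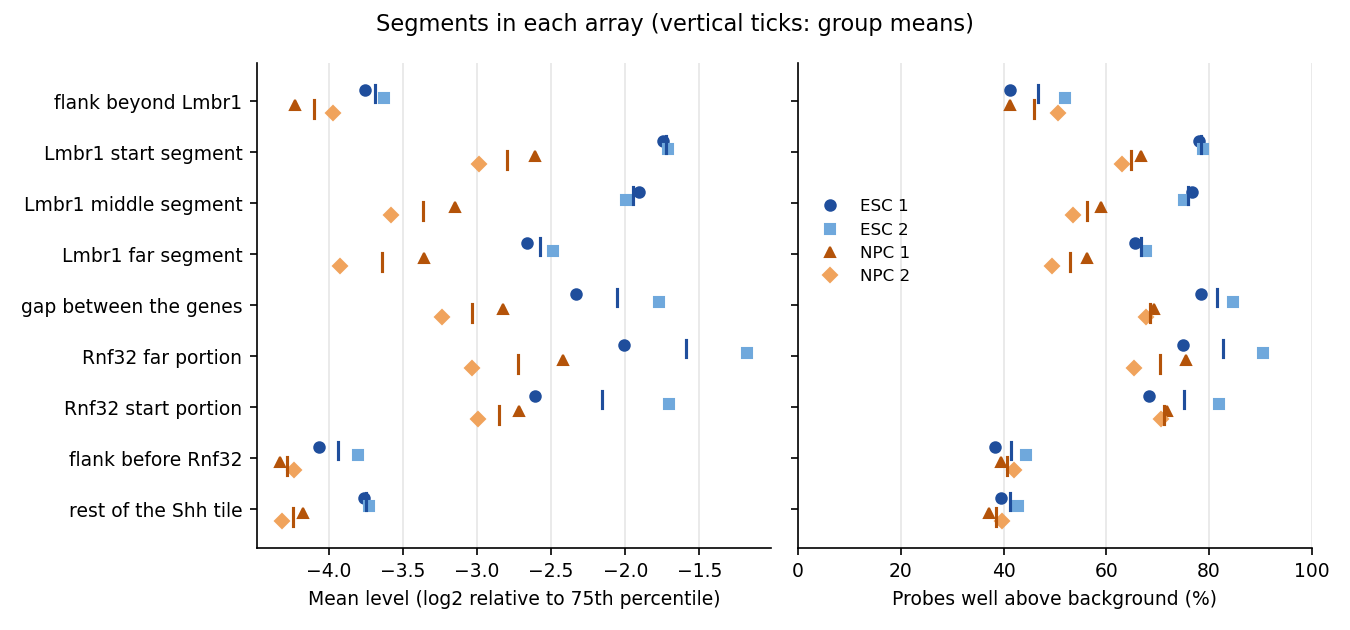
Mean log2 level (left) and percent of probes well above background (right) for each segment, ordered from beyond the Lmbr1 start to before Rnf32, with 1 marker per array and a vertical tick at each group mean. The ESC markers, which are means over a segment, lie close together over the 3 segments of Lmbr1 and spread apart over Rnf32, where ESC 2 stands highest.

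Steps at the gene borders compare different probes, so they are read only as they differ between arrays. At the start of Lmbr1 the first 5 kb inside exceeded the first 5 kb outside by 2.36 and 2.56 in ESC and by 2.29 and 2.38 in NPC. These steps overlap between groups (difference -0.13, SE 0.11, exact permutation p = 0.667). The start portion of Rnf32 exceeded the flank before it by 1.46 and 2.10 in ESC and by 1.61 and 1.25 in NPC, with overlap. The flank before Rnf32 was at -4.07 and -3.80 in ESC and at -4.33 and -4.24 in NPC, and the flank beyond Lmbr1 at -3.75 and -3.63 in ESC and at -4.23 and -3.97 in NPC. The rest of the Shh tile was at -3.76, -3.73, -4.17 and -4.31.

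The gap between the spans used here, which the longer RefSeq length of Rnf32 could fill, was at -2.34 and -1.77 in ESC and at -2.82 and -3.24 in NPC, a change of -0.98. It lay below the far portion of Rnf32 in all 4 arrays, by values from -0.59 to -0.21, and above the far segment of Lmbr1 in all 4, by 0.33 to 0.71. Neither of these differences separated the groups. Since the signal has no strand, RNA of the 2 genes cannot be told apart there. Of the 65 probes in the gap, 78.5% were well above background in ESC 1, 84.6% in ESC 2, 69.2% in NPC 1 and 67.7% in NPC 2.

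Single probes of Lmbr1 followed the same pattern. Of the 1088 Lmbr1 probes tested, 93 were called lower and 1 higher (limma, Benjamini-Hochberg over 47900 probes), where 1.58% of all probes were called lower and 10.8% higher. Rnf32 had 4 lower and 0 higher among 335, and its 1.19% lower was no more than the share over all probes. By the unadjusted limma p, 42 and 0 of its probes were under 0.05, against 3289 and 8132 of all 47900. In the middle segment of Lmbr1 45 of 356 probes were called lower (12.6%), in the far segment 30 of 430 (6.98%) and in the start segment 18 of 302 (5.96%). Over the whole stretch 100 of 1644 probes were called lower. With all 4 arrays kept, this number ran from 41 with the replicate number as a block to 180 with the percentile over all probes. The share of all probes called was not taken for the alternatives, so their counts are not set against the array.

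Of the Lmbr1 probes, 82 were well above background on both ESC arrays and neither NPC array, or 7.45%, and 3 showed the reverse. Over the array these classes held 1.48% and 10.8% of the probes. In Rnf32 the counts were 8 and 3 of 336. Another 513 Lmbr1 probes and 186 Rnf32 probes were well above background on all 4 arrays. Probes that overlap or adjoin read the same RNA and are not independent.

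**Figure D4:**
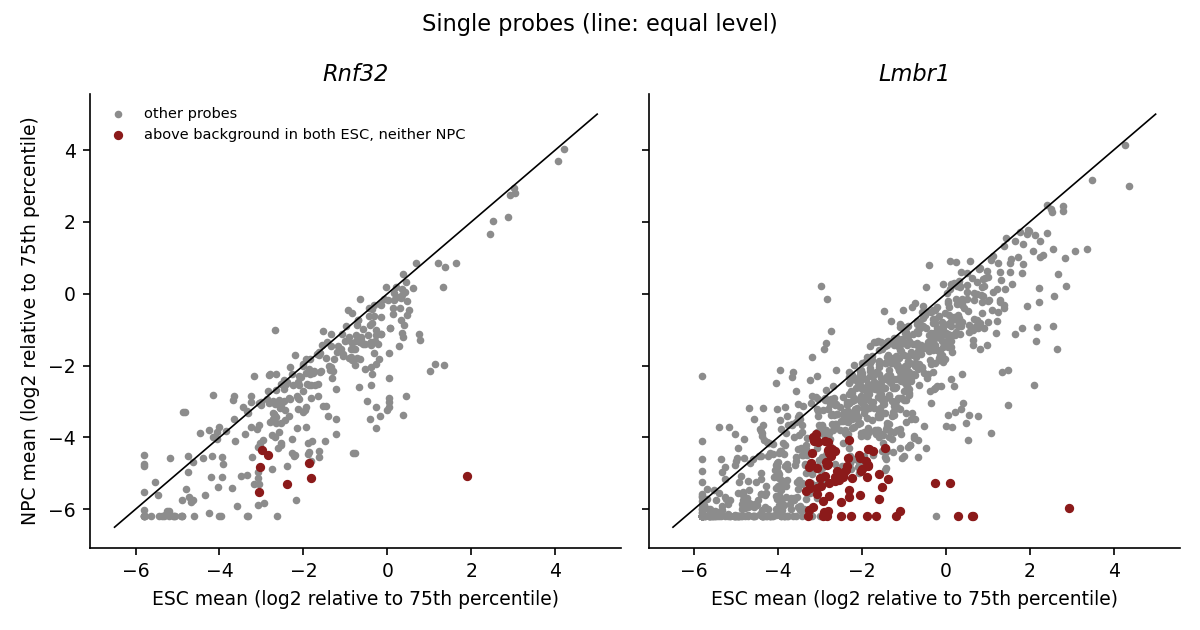
NPC mean against ESC mean of single probes, both in log2 relative to the 75th percentile, for Rnf32 (left) and Lmbr1 (right), with a line of equal level. Most points lie below the line, and the red points are the 8 Rnf32 and 82 Lmbr1 probes well above background on both ESC arrays and neither NPC array.

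The largest falls of single probes were deeper than those of the probes nearest to them. The probe chr5:29611089-29611148 in Lmbr1 was at 2.80 and 3.09 in ESC and at -6.06 and -5.88 in NPC, where it was not well above background. With the dim values set to the lowest measurable signal, it was at least 112-fold higher in ESC (limma adjusted p = 0.0104). The probe ending just before it, from 29611029, was at 3.50 and 3.34 in ESC and still at 1.57 in NPC 2, and the next one, from 29611149, was at 0.50 and 1.31 in ESC and at -0.63 and -1.25 in NPC. Both neighbours were well above background on all 4 arrays (the spot from 29611029 on NPC 1 was an outlier and left out). What set the probe apart was not tested.

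In Rnf32 the probe chr5:29544632-29544691 was at 1.72 and 2.09 in ESC and at -6.06 and -4.12 in NPC, at least 54.4-fold higher in ESC (limma adjusted p = 0.0138). The probe from 29544528 beside it was at 4.26 and 3.88 in ESC and at 3.08 and 4.33 in NPC, values that overlap between groups. The other named Lmbr1 probe, chr5:29666304-29666363 in Lmbr1, was at 0.33 and 0.96 in ESC and at -6.06 and -6.33 in NPC, at least 22.8-fold higher in ESC (limma adjusted p = 0.0104). The nearest probes on its 2 sides, from 29665878 and from 29668979 farther off, were also lower in both NPC arrays than in either ESC array. The 1 probe called higher, chr5:29605249-29605308 in Lmbr1, was at -5.75 and -5.86 in ESC and at -2.98 and -1.60 in NPC. Under the main scaling it was at least 2.27-fold higher in NPC (limma adjusted p = 0.0330). This rise depends on the processing: with normexp and with the authors' values it was 0.63 and not called. It was also not called with the percentile over all probes (3.13) or the replicate block (3.52). The probes adjoining this probe on both sides were not well above background on any array.

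Spots at the lowest value between bright neighbours occurred on every array. Among Lmbr1 probes flanked on both sides within 200 bases by probes well above background, 5.75% and 2.95% were at the array's lowest value in ESC 1 and ESC 2, and 8.64% and 12.8% in NPC 1 and NPC 2. For Rnf32 these shares were 5%, 0.435%, 4.24% and 13.7%, and over the whole array they were 12.8%, 11.7%, 8.11% and 12.4%. A wider filter left out every probe at the lowest value of any array, with bright neighbours or without. It kept 759 Lmbr1 probes and 255 Rnf32 probes. Lowest values were more frequent in NPC over the stretch, so this filter does not measure the part of spots between bright neighbours. Lmbr1 then changed by -1.05 (limma adjusted p = 0.00339), with 25 of 29 windows called lower against 17.9% of all windows. Rnf32 changed by -0.74 (limma adjusted p = 0.0547). Of 1134 probes tested in the stretch, 47 were called lower, and the share of all probes was not taken.

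The shape of the profile along each gene was largely shared by the groups. Across the 30 windows of Lmbr1, Pearson's r was 0.88 between the ESC arrays, 0.93 between the NPC arrays and 0.72 to 0.94 between arrays of different groups. Across the 6 windows of Rnf32 it was 0.95, 0.81 and 0.64 to 0.97. These are descriptions across positions that share probes and arrays, not tests.

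The windows of other regions whose 4 values came closest to Lmbr1 were chr15:61820001-61825000, chr5:28520001-28525000 and chr5:143680001-143685000, at Euclidean distances of 0.26, 0.37 and 0.42 (log2) over the 4 arrays. Their changes were -1.09, -1.13 and -1.05. For Rnf32 the closest were chr19:53695001-53700000, chr5:28745001-28750000 and chr7:146760001-146765000, at distances of 0.56, 0.56 and 0.63 and with changes of -0.79, -0.53 and -0.44. None of the latter 3 was called (limma adjusted p from 0.0598 to 0.134).

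Windows elsewhere on the array with most probes detected changed in both directions. Among the 366 windows outside the stretch with at least 50% of probes well above background over all arrays, 88 were called lower and 108 higher, and the median change was -0.16. Of the Lmbr1 windows 27 met the same limit, with 22 called lower and a median of -1.18, and of the Rnf32 windows all 6 met it, with a median of -0.89. The limit is a mean over both groups, so a window could pass it through ESC alone. The Lmbr1 windows from 29630001 and 29665001 passed with 71.4% and 76.7% in ESC and only 35.7% and 33.3% in NPC. These counts are thus not limited to windows detected in both groups. In the rest of the Shh tile, 103 of 221 windows were called lower and 0 higher, against 284 and 212 of all 964 windows. By the unadjusted limma p, 151 and 0 of the tile's windows were under 0.05, against 381 and 232 of all 964.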

How the data were processed

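Each of 4 samples was hybridised to 1 Agilent tiling array read in 1 colour, and the deposited files place all 4 on 1 slide and 1 scan. Per the file headers, the deposited intensity came from Agilent Feature Extraction 11.5.1.1 on mm9. The values show subtracted background and a floor per array. Marks for outlier, saturated and well-above-background spots come from the same deposited files. The authors' series table holds log2 values, as judged from the values. The submitters' processing notes name limma, without a version, and scale, centring and filter are otherwise not given in the sources used here. Its column medians were 4.95, 4.95, 4.97 and 4.99. The ESC 1 column followed its scanner file less closely than the other 3 (Spearman 0.873 against 1), and the table served only as an alternative.

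From these files, the 3188 control spots and outlier spots were left out, and log2 intensity was centred on each array's 75th percentile over 15356 probes, those well above background on every array. Probes were averaged in 5 kb windows with at least 5 probes and over each gene. NPC minus ESC was tested with limma 3.58.1 (lmFit, eBayes, group alone) in R 4.3.3, with Benjamini-Hochberg adjustment over 964 windows, 966 rows where the genes were added, or 47900 probes. A call is an adjusted p under 0.05. Differences within arrays had two-sided exact permutation tests. Fits were tested on simulated data. Windows were named as the 5 with the largest fall, the 5 with the smallest change, and the highest and lowest of each gene, and probes as the 3 largest falls and the rises called. Scanner files hold median and not mean spot signal, so normexp (offset 50) used the median. Genes and lists were chosen with earlier results of these data known. Marker genes of ESC and NPC were not placed on the array and not used here. Figures used matplotlib 3.10.9 in Python 3.11.15.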

Additional observations from a re-analysis of the deposited data

How the results depend on the processing

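The direction of the Lmbr1 and Rnf32 changes held in all 16 alternatives run for each. Leaving out 1 array at a time, with the remaining array of that group taken to have the spread of the other pair, gave Lmbr1 changes from -1.42 to -0.94 and Rnf32 changes from -1.34 to -0.47, 0 to 27 Lmbr1 windows and 0 to 2 Rnf32 windows lower, 52 to 333 probes lower, a Lmbr1 minus Rnf32 difference from -0.68 to 0.13, and a trend difference along Lmbr1 from -0.083 to 0.19. Rnf32 was called at -1.29 with the all-probe percentile, -0.47 with normexp and -0.93 with the authors' values. Lmbr1 windows lower numbered 16 under each of 3 scalings. These were without chromosome 12 in the percentile (6.64% of all windows lower), scaled to the control spots named SRN (7.05%), and centred on the rest of the Shh tile (6.33%). Lmbr1 windows lower numbered 47 of 64 at 2 kb and 13 of 14 at 10 kb. At these sizes more or fewer windows were tested, and the share of all windows was not taken. Rnf32 windows lower numbered 0 under the same 3 scalings, and 6 with the authors' values or the all-probe percentile (46.0% and 64.5% of all windows lower). They numbered 3 with normexp (36.2%) and 4 of 14 at 2 kb. With the median over probes (15.2%), dim probes left out (27.7%) or probes at the lowest value left out (17.9%) they numbered 2. Probes lower numbered 180 of 1644 tested with the all-probe percentile, 62 of 1542 with the authors' values and 151 of 1129 with dim probes left out. They numbered 54 of 1644 centred on the tile and 47 of 1134 with probes at the lowest value left out. The share of all probes called was not taken for these runs. The trend difference turned to -0.015 with the authors' values and -0.083 at 2 kb. Centred on the tile, the windows from 29520001, 29700001, 29705001 and 29710001 turned to 0.14, 0.0066, 0.13 and 0.037. Of 205 values of the 13 named windows, 153 kept direction and call, 25 lost the call, 23 gained it and 4 turned. Except where a setting changes what is tested, the cause was not tested. Centring on the tile and leaving out lowest values were chosen after seeing the data.

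Samples share only a replicate number. The replicate 2 minus replicate 1 differences of the groups correlated at 0.047 over windows. The replicate block gave Lmbr1 -1.18 (limma adjusted p = 0.00361), Rnf32 -0.90 (0.0503), 26 and 3 windows lower and 41 probes lower. With the block, 18.6% of all windows were called lower, and the share of all probes was not taken. Signal near background limits what falls can be measured, since only 60.1% and 54.5% of Lmbr1 probes were well above background in NPC 1 and NPC 2.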
